A study of Homo sapiens with 12 samples.

Results

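The DNAJ genes encode the J proteins, also called HSP40 co-chaperones. They were taken here as every gene symbol made of DNAJ, a class letter A, B or C and a number, with 4 proteins of the endoplasmic reticulum (ER) lumen left out (*DNAJB9*, *DNAJB11*, *DNAJC3* and *DNAJC10*). This gave 39 of the 43236 gene symbols counted, of which 4 belong to class A, 11 to class B and 24 to class C. Of these, 36 passed the filter on low counts, with all 4 of class A, 8 of class B and all 24 of class C. The study sequenced RNA of MNNG/HOS cells, a human osteosarcoma line that the sample labels name HOS-MNNG, after DMSO alone or 300 nM NXP800 for 6 h or 24 h. NXP800 is an orally available small molecule that was first developed against the pathway of the heat shock transcription factor HSF1. Each of the 4 groups (DMSO 6 h, NXP800 6 h, DMSO 24 h and NXP800 24 h) holds 3 libraries of the same unmodified line, and NXP800 was set against DMSO within each time. The comparisons ask which J protein genes responded to the compound, and whether classes A, B and C did so alike.

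J proteins carry a J domain that stimulates the ATPase of HSP70 chaperones and so locks HSP70 onto a client protein. Class A members have the J domain, a glycine and phenylalanine-rich region and a zinc-binding region, class B members lack the zinc-binding region, and class C members share little beyond the J domain and mostly serve one task at one place in the cell. Some cytosolic members of classes A and B are textbook targets of HSF1, which binds heat shock elements made of inverted GAA units, while other members are expressed at a steady level.

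Promoter stretches that hold heat shock element cores are shown here for *DNAJA1*, *DNAJA4*, *DNAJB1* and *DNAJB4*, which decreased at 6 h, and for *DNAJB6*, which was not called. Cores of *DNAJC6*, which increased at 6 h, and of *DNAJB7* and *DNAJC15*, which were not called, are not shown. Further cores of *DNAJA1* and *DNAJB1* are not shown either. The search was for the core GAANNTTC or TTCNNGAA on both strands of RefSeq windows of 300 bases (250 before to 50 after an annotated start, GRCh38.p14), in which 35 of the 39 members had an entry. *DNAJB3*, *DNAJC1*, *DNAJC22* and *DNAJC24* had none. Sequences run 5′ to 3′ on the strand of the gene, and capitals mark the matched bases.
DNAJA1, chr9:33025268-33025296, plus strand, from 5 bases before the start into the first exon: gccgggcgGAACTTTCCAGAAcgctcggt
DNAJA4, chr15:78264471-78264517, plus strand: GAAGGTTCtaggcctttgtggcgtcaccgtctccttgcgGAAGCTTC
DNAJB1, chr19:14518437-14518474, minus strand: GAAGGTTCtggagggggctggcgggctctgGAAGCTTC
DNAJB4, chr1:78004811-78004878, plus strand: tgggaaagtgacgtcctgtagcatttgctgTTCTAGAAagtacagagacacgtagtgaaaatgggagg
DNAJB6, chr7:157336843-157336915, plus strand: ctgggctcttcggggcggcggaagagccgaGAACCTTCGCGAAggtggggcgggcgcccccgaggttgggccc
In *DNAJA1* and *DNAJB6* a pair of cores overlaps, which gives 3 alternating units in a row. In *DNAJA4* and *DNAJB1* a pair of separate cores lies between -91 and -40 bases from the start.

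At 6 h of NXP800, 10 J protein genes increased and 8 decreased of the 36 tested, so that 50.0% were called beside 52.8% of all 15979 genes tested. Over all genes 25.0% increased and 27.8% decreased at 6 h. At 24 h, 6 increased and 7 decreased, which is 36.1% beside 56.0% of all genes, of which 27.5% increased and 28.6% decreased. With library size alone as the scaling, 9 increased and 5 decreased at 24 h. Calls are at an adjusted p below 0.05 of edgeR's quasi-likelihood test. Changes were small for most members. Only *DNAJA1* was called beyond 2-fold at 6 h, and *DNAJC12* and *DNAJB2* at 24 h, beside 11.2% and 14.0% of all genes at those times. The median log2 fold change of the members was 0.10 at 6 h and -0.01 at 24 h, where all genes had -0.05 and -0.00. Of the members, 10 were called at both times in the same direction, 8 at 6 h alone and 3 at 24 h alone, and 15 were called at neither. Over all 15979 genes tested the counts in that order were 5598, 2499, 3017 and 4527. None was called in opposite directions, which 338 of all genes tested were. Replicate numbers were taken to pair the libraries, from correlations between them and not from the labels. With the number as a block 21 members were called at 6 h (58.3%, beside 62.3% of all genes) and 18 at 24 h (50.0%, beside 65.2%). The block added *DNAJB12*, *DNAJC15* and *DNAJC17* at 6 h (edgeR adjusted p = 0.0262, 0.0115 and 0.0105), and *DNAJA4*, *DNAJB6*, *DNAJC1*, *DNAJC9* and *DNAJC21* at 24 h (0.0170, 0.00704, 0.00603, 0.0131 and 0.0443). Without NXP800 6 h replicate 2 the count at 6 h fell to 11 (5 increased, 6 decreased), and without DMSO 6 h replicate 3 it was 6 increased and 9 decreased.

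**Figure D1:**
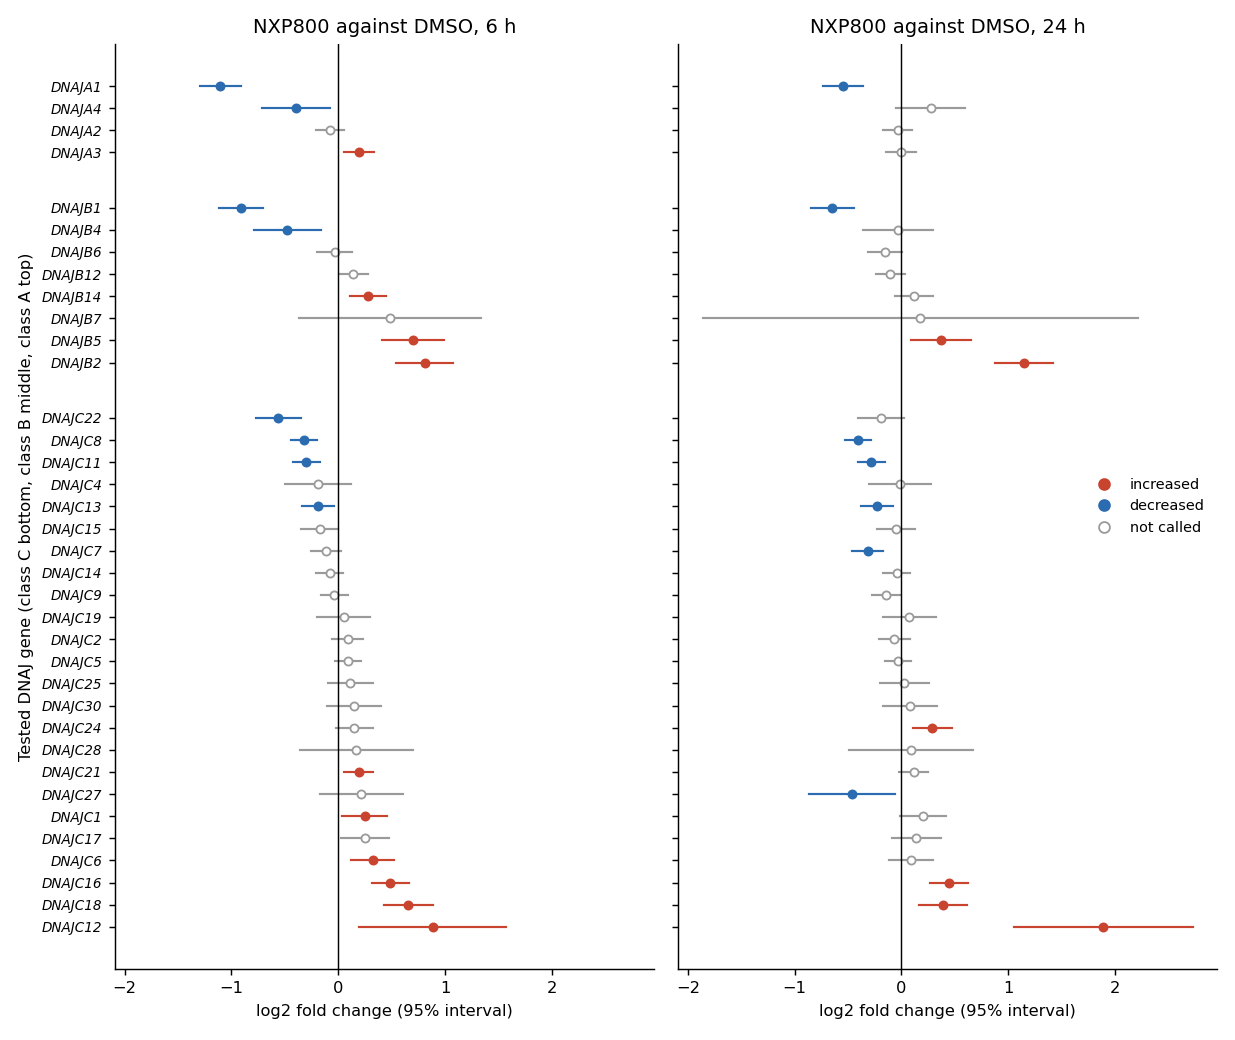
The log2 fold change of NXP800 against DMSO (x axis, with its 95% interval) for the 36 tested DNAJ genes at 6 h (left) and 24 h (right), ordered within each class by the change at 6 h; filled points passed an edgeR adjusted p below 0.05. *DNAJA1* and *DNAJB1* lie lowest among the called members at both times, and *DNAJC12* and *DNAJB2* highest.

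The 12 libraries held between 30810614 and 31947656 counts on genes. Read pairs on no annotated gene were 6.66 to 8.14% of a library at 6 h and 2.73 to 3.67% at 24 h, and pairs aligned to several places were 1.86 to 1.99% and 2.96 to 3.37%. The time of treatment and the set of libraries therefore cannot be told apart in levels or responses set across the times. Of the 9 osteoblast lineage markers checked, *RUNX2*, *COL1A1*, *SPARC* and *SPP1* passed the filter, whereas *SP7*, *ALPL*, *COL1A2*, *IBSP* and *BGLAP* stood below 0.4 CPM (counts scaled to a common library size) in every library. Of the 7 markers of epithelial, blood and endothelial cells, *EPCAM* (5.59 to 10.2 CPM) and *PECAM1* (0.15 to 0.91 CPM) passed it. With NXP800, *EPCAM* rose at 24 h (log2 fold change 0.81) and *PECAM1* fell at 6 h (-1.17). Among the osteoblast lineage markers *SPARC* fell at both times (-0.79 and -2.02), *COL1A1* fell at both (-0.50 and -0.76), *SPP1* fell at 24 h (-1.29), and *RUNX2* rose at both (0.71 and 0.36). The part of these changes in the results was not tested. In bulk RNA, fewer cells of a type and less RNA per cell cannot be told apart.

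Class A holds the general cytosolic co-chaperones *DNAJA1*, *DNAJA2* and *DNAJA4* and the mitochondrial *DNAJA3*. *DNAJA1* (chromosome 9, 33025273 to 33039907) helps HSP70 fold newly made and misfolded proteins. It stood at 443, 432 and 389 CPM in the DMSO libraries at 6 h and at 201, 196 and 191 CPM with NXP800. At 24 h it stood at 305, 285 and 364 CPM with DMSO and at 226, 194 and 234 CPM with NXP800. The groups did not overlap at either time, and the 3 NXP800 libraries at 6 h lay closest together. *DNAJA1* fell by 1.10 on the log2 scale at 6 h (SE 0.09, edgeR adjusted p = 5.68e-08) and by 0.55 at 24 h (SE 0.09, adjusted p = 7.36e-05). Reads of its 6 named pseudogenes may be counted with it or lost.

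*DNAJA4*, a heat-inducible relative, stood at 10.5, 7.82 and 11.3 CPM with DMSO at 6 h and at 7.95, 6.49 and 8.08 CPM with NXP800. At 24 h the values were 6.82, 6.19 and 8.76 CPM with DMSO and 8.52, 8.59 and 9.19 CPM with NXP800. The groups overlapped at both times, with DMSO mostly higher at 6 h and NXP800 mostly higher at 24 h. At 6 h *DNAJA4* fell by 0.40 on the log2 scale (SE 0.15, edgeR adjusted p = 0.0343). That call was lost without DMSO 6 h replicate 1 or 3, NXP800 6 h replicate 2 or NXP800 24 h replicate 2, at adjusted p of 0.103, 0.158, 0.147 and 0.0563, and in a fit of the 6 h libraries alone (0.0508). At 24 h its log2 fold change was 0.27 (SE 0.15, adjusted p = 0.136), which passed with the replicate block (0.28, adjusted p = 0.0170) and without DMSO 24 h replicate 3 (0.43, adjusted p = 0.0324).

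*DNAJA2*, a close relative of *DNAJA1* with broad cytosolic clients, stood between 173 and 195 CPM in the 6 libraries at 6 h and between 156 and 179 CPM at 24 h. Its log2 fold changes were -0.08 (95% interval -0.21 to 0.06) and -0.03 (-0.17 to 0.10), and it passed no test. *DNAJA3*, the partner of the mitochondrial HSP70, stood at 186, 193 and 185 CPM with DMSO at 6 h and at 223, 225 and 199 CPM with NXP800. The groups did not overlap, and *DNAJA3* rose by 0.20 on the log2 scale (SE 0.07, edgeR adjusted p = 0.0187). This call was lost without DMSO 6 h replicate 1 or 3 or NXP800 6 h replicate 1 or 2, at adjusted p of 0.0600, 0.0544, 0.0761 and 0.0791. At 24 h its change was -0.01 (SE 0.07, adjusted p = 0.949).

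Class B joins stress-inducible and constitutive cytosolic members with proteins anchored in the ER membrane. *DNAJB1* (chromosome 19, 14514769 to 14560391), the classic heat-inducible HSP40 of the cytosol and nucleus, fell at both times. It stood at 94.6, 104 and 104 CPM with DMSO at 6 h and at 53.3, 59.1 and 48.9 CPM with NXP800. At 24 h it stood at 138, 126 and 161 CPM with DMSO and at 88.6, 81.2 and 101 CPM with NXP800. The groups were separate at both times. The log2 fold change was -0.91 at 6 h (SE 0.10, edgeR adjusted p = 1.11e-06) and -0.65 at 24 h (SE 0.10, adjusted p = 2.63e-05).

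*DNAJB4*, a cytosolic relative of *DNAJB1*, stood at 13.2, 12.4 and 12.8 CPM with DMSO at 6 h and at 10.1, 8.54 and 8.93 CPM with NXP800. At 24 h the libraries stood at 8.53, 6.52 and 10.2 CPM with DMSO and at 8.59, 6.62 and 9.51 CPM with NXP800. The groups were separate at 6 h and overlapped at 24 h. *DNAJB4* fell by 0.47 on the log2 scale at 6 h (SE 0.15, edgeR adjusted p = 0.0126), a call lost without NXP800 6 h replicate 2 (adjusted p = 0.0525), and its change at 24 h was -0.03 (SE 0.15). *DNAJB6*, which holds back the aggregation of polyglutamine proteins, was not called at either time, with log2 fold changes of -0.03 and -0.15 (SE 0.08 for both). With the replicate block its fall at 24 h passed (edgeR adjusted p = 0.00704). It has 8 named pseudogenes that may take or lend reads.

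*DNAJB2* (chromosome 2, 219279366 to 219286895) also carries ubiquitin-interacting motifs and sorts HSP70 clients to the proteasome. It stood at 17.9, 16.3 and 17.2 CPM with DMSO at 6 h and at 33.9, 28.6 and 27.7 CPM with NXP800. At 24 h it stood at 13.8, 14.1 and 18.3 CPM with DMSO and at 27.6, 37.7 and 36.8 CPM with NXP800. All NXP800 libraries lay above all DMSO libraries. *DNAJB2* rose by 0.81 on the log2 scale at 6 h (SE 0.13, edgeR adjusted p = 5.70e-05) and by 1.15 at 24 h (SE 0.13, adjusted p = 1.44e-06).

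*DNAJB5*, another cytosolic relative of *DNAJB1*, stood at 4.40, 4.51 and 4.10 CPM with DMSO and at 6.51, 7.43 and 7.18 CPM with NXP800 at 6 h. At the later time it stood at 6.79, 6.93 and 5.42 CPM and at 8.32, 9.47 and 6.96 CPM. The groups did not overlap, though at 24 h the lowest NXP800 library was just above the highest DMSO library. *DNAJB5* rose by 0.70 on the log2 scale at 6 h (SE 0.14, edgeR adjusted p = 4.37e-04) and by 0.37 at 24 h (SE 0.13, adjusted p = 0.0252). The call at 24 h was lost without DMSO 24 h replicate 3 or NXP800 24 h replicate 1 or 2, at adjusted p of 0.125, 0.0529 and 0.0971, and in a fit of the 24 h libraries alone (0.0501). Of the untested members, *DNAJB13* had 5, 4, 3 and 1 counts in the 4 groups in the order given above, *DNAJB3* had 1 count in all, and *DNAJB8* had none. *DNAJB7* passed the filter with 12 to 31 counts per library at 6 h and 0 to 3 at 24 h, and was not called.

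**Figure D2:**
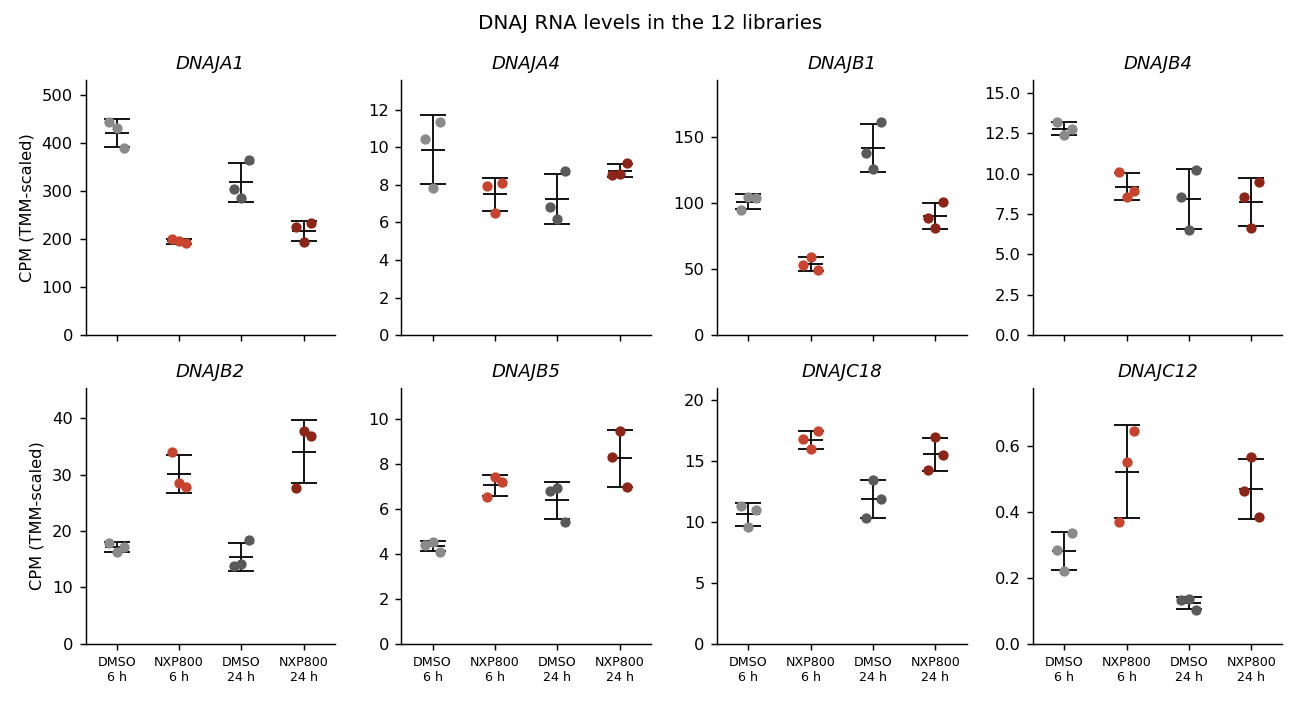
CPM after TMM scaling (y axis, from 0) of 8 DNAJ genes in each of the 12 libraries (points), with the mean and SD of the 3 libraries of a group (bars). NXP800 libraries lie below their DMSO libraries for *DNAJA1* and *DNAJB1* and above them for *DNAJB2*, *DNAJB5*, *DNAJC18* and *DNAJC12* at both times, while *DNAJB4* is separate at 6 h only and *DNAJA4* overlaps at both.

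Class C gave the highest log2 fold change, in a gene of very low level. *DNAJC12* (chromosome 10, 67796669 to 67838188), a co-chaperone of the aromatic amino acid hydroxylases, had 9, 7 and 11 counts with DMSO at 6 h and 12, 18 and 21 with NXP800. At 24 h it had 4, 4 and 3 counts with DMSO and 14, 18 and 12 with NXP800. All NXP800 libraries were above their DMSO libraries. *DNAJC12* rose by 0.88 on the log2 scale at 6 h (SE 0.32, edgeR adjusted p = 0.0302) and by 1.89 at 24 h (SE 0.40, adjusted p = 6.93e-04). The call at 6 h was lost without DMSO 6 h replicate 1 or 2 or NXP800 6 h replicate 2 or 3 (adjusted p of 0.0690, 0.112, 0.0802 and 0.132), with no filter on low counts (0.0925) and by DESeq2 (0.154).

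Next among the rises of class C came a pair of ER membrane proteins. *DNAJC18* stood at 11.3, 9.55 and 10.9 CPM with DMSO and at 16.7, 15.9 and 17.4 CPM with NXP800 at 6 h. The 24 h libraries stood at 10.3, 13.5 and 11.8 CPM and at 14.2, 16.9 and 15.4 CPM. The groups were separate at both times, and *DNAJC18* rose by 0.66 (SE 0.11, edgeR adjusted p = 9.06e-05) and 0.39 (SE 0.11, adjusted p = 0.00590) on the log2 scale. *DNAJC16* stood at 18.3, 17.2 and 20.4 CPM with DMSO and at 24.8, 25.9 and 27.7 CPM with NXP800 at 6 h. After 24 h the levels were 20.8, 20.3 and 19.3 CPM and 27.2, 29.4 and 25.7 CPM. Its groups were separate as well, with rises of 0.49 (SE 0.08, edgeR adjusted p = 1.27e-04) and 0.44 (SE 0.08, adjusted p = 2.76e-04). *DNAJC24*, a factor of diphthamide synthesis, was called at 24 h alone. It stood at 8.16, 8.34 and 8.62 CPM with DMSO and at 9.97, 10.7 and 10.1 CPM with NXP800, with no overlap and a rise of 0.29 (SE 0.09, edgeR adjusted p = 0.0102).

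The falls of class C were smaller than those of *DNAJA1* and *DNAJB1* at the same time. *DNAJC22*, the human form of the fly gene wurst, stood at 10.5, 10.2 and 9.87 CPM with DMSO and at 6.66, 6.64 and 7.46 CPM with NXP800 at 6 h. The groups were separate, and *DNAJC22* fell by 0.56 on the log2 scale (SE 0.10, edgeR adjusted p = 1.70e-04), while its change at 24 h was -0.19 (SE 0.10, adjusted p = 0.112). *DNAJC8*, a protein found with spliceosomes, stood at 131, 129 and 119 CPM with DMSO and at 102, 103 and 99.3 CPM with NXP800 at 6 h. In the 24 h libraries it stood at 108, 109 and 106 CPM and at 84.6, 77.1 and 81.7 CPM. Its groups did not overlap, with falls of 0.32 (SE 0.06, edgeR adjusted p = 2.27e-04) and 0.41 (SE 0.06, adjusted p = 1.70e-05). It has 3 named pseudogenes.

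*DNAJC7*, a tetratricopeptide protein that binds both HSP70 and HSP90, stood at 99.1, 95.1 and 99.7 CPM with DMSO and at 81.1, 74.0 and 80.8 CPM with NXP800 at 24 h. The groups were separate. *DNAJC7* fell by 0.32 on the log2 scale (SE 0.07, edgeR adjusted p = 7.73e-04), and at 6 h its change was -0.11 (SE 0.07, adjusted p = 0.164). *DNAJC27*, a Rab-like GTPase with a J domain, stood at 2.74, 3.26 and 2.61 CPM with DMSO and at 1.78, 2.66 and 1.79 CPM with NXP800 at 24 h. Its groups overlapped, and its fall of 0.46 (SE 0.19, edgeR adjusted p = 0.0485) was at the edge of the threshold. That call was lost when any 1 of 10 libraries was left out (all but NXP800 6 h replicate 1 and NXP800 24 h replicate 2), at adjusted p of up to 0.170. It was also lost with library size alone as the scaling (0.125), no filter on low counts (0.0652), DESeq2 (0.0836) and a fit of the 24 h libraries alone (0.0957).

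By place in the cell, 4 of the 7 ER membrane members increased at 6 h and none decreased, beside 25.0% and 27.8% of all genes tested. These were *DNAJB14*, *DNAJC1*, *DNAJC16* and *DNAJC18*, and the median log2 fold change of the 7 was 0.25. At 24 h *DNAJC16* and *DNAJC18* increased and none decreased (median 0.12), beside 27.5% increased and 28.6% decreased of all genes tested. *DNAJB14* helps remove misfolded ER membrane proteins and rose by 0.28 (SE 0.08, edgeR adjusted p = 0.00719). *DNAJC1* binds ribosomes at the ER and rose by 0.25 (SE 0.10, adjusted p = 0.0475), a call lost without any of DMSO 6 h replicates 1, 2 and 3, NXP800 6 h replicates 1 and 2 and DMSO 24 h replicate 2, at adjusted p of up to 0.185. The 3 others were *DNAJB12*, *DNAJC14* and *DNAJC25*, which ranged from -0.08 to 0.14 at 6 h. More than 50% of the exon length of *DNAJC14* (58.1%) lies under other genes.

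Of the 7 mitochondrial members, *DNAJA3* increased at 6 h and *DNAJC11*, a protein of the machinery that shapes the cristae, decreased at both times. The shares called were 28.6% at 6 h and 14.3% at 24 h, beside 52.8% and 56.0% of all genes tested. *DNAJC11* stood at 160 to 175 CPM with DMSO and 127 to 141 CPM with NXP800 at 6 h, and at 177 to 185 and 144 to 154 CPM at 24 h. The groups were separate, with falls of 0.30 and 0.28 (SE 0.06 for both, edgeR adjusted p = 5.77e-04 and 7.65e-04). The import motor subunits *DNAJC15* and *DNAJC19* had changes of -0.17 and 0.05 at 6 h and of -0.05 and 0.07 at 24 h, and passed no test without the block.

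Of the 5 nuclear and ribosome assembly members, *DNAJC21*, a factor of large ribosomal subunit maturation, rose by 0.19 at 6 h (SE 0.06, edgeR adjusted p = 0.0184) and *DNAJC8* fell. The call of *DNAJC21* was lost without DMSO 6 h replicate 3 or NXP800 6 h replicate 1 or 2 (adjusted p of 0.0819, 0.0572 and 0.0615). Of the 4 vesicle members, auxilin (*DNAJC6*), which uncoats clathrin vesicles, rose by 0.32 at 6 h (SE 0.10, edgeR adjusted p = 0.0103). This call was lost without DMSO 6 h replicate 3 or NXP800 6 h replicate 2 (adjusted p of 0.0514 and 0.0706). The endosomal *DNAJC13* fell by 0.19 at 6 h (SE 0.07, edgeR adjusted p = 0.0375) and by 0.23 at 24 h (SE 0.07, adjusted p = 0.0123). It lost the call at 6 h without DMSO 6 h replicate 1 or 2, NXP800 6 h replicate 1 or 3 or NXP800 24 h replicate 2 (adjusted p of 0.0723, 0.126, 0.147, 0.101 and 0.0520) and at 24 h without NXP800 24 h replicate 1 (0.0670). With library size alone as the scaling neither fall passed (0.0897 and 0.160), and the fall at 6 h missed the threshold with no filter on low counts (0.0580) and by DESeq2 (0.0606). The synaptic vesicle protein *DNAJC5* changed by 0.09 and -0.03 (SE 0.06 for both) and was not called. *DNAJC27*, described above, belongs to the vesicle members too and was called at 24 h alone. The shares called among the vesicle members were 50.0% at both times, beside 52.8% and 56.0% of all genes tested.

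The 6 members listed as HSF1-inducible in the cytosol divided at 6 h. *DNAJA1*, *DNAJA4*, *DNAJB1* and *DNAJB4* decreased, *DNAJB2* increased and *DNAJB6* was not called, with a median log2 fold change of -0.44. At 24 h, 2 decreased (*DNAJA1* and *DNAJB1*), 1 increased and 3 were not called, with a median of -0.09. The shares called were 83.3% at 6 h and 50.0% at 24 h, beside 52.8% and 56.0% of all genes tested. All 4 members of the list that decreased at 6 h hold a heat shock element core in their windows, and so does *DNAJB6*, whereas *DNAJB2* holds none. Outside the list, *DNAJC8*, *DNAJC11* and *DNAJC13* decreased at 6 h and hold no core, and *DNAJC22* decreased and had no window. The list was written with earlier results of these data known, and a link between core and fall was not tested.

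Over all members with an entry, 8 of 35 (22.9%) held a core, beside 16.2% of all 27305 genes with a window. By class these were 2 of 4 in class A, 4 of 10 in class B and 2 of 21 in class C. The 3-unit form was found in *DNAJA1* and *DNAJB6*, or 5.71% beside 0.608% of all genes. At 6 h, 4 of the 8 members with a core decreased, 1 (*DNAJC6*) increased and 3 (*DNAJB6*, *DNAJB7* and *DNAJC15*) were not called. Of the 25 tested members with a window and no core, 3 decreased and 8 increased. Over all genes tested, the share that decreased at 6 h was 27.2% of the 1664 with a core and 28.9% of the 10571 without one. Of the same genes, 452 of the 1664 with a core and 2689 of the 10571 without one increased at 6 h. At 24 h, 2 of the 8 members with a core and 5 of the 25 without one decreased, beside 29.7% of all genes with a core and 29.7% of those without. A composite element of C/EBP and ATF factors, searched as TGATGNAA on both strands, was found in 1 member, a second start of *DNAJA4* (2.86% of members beside 4.46% of all genes). A match describes these letters alone, and no factor was measured.

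**Figure D3:**
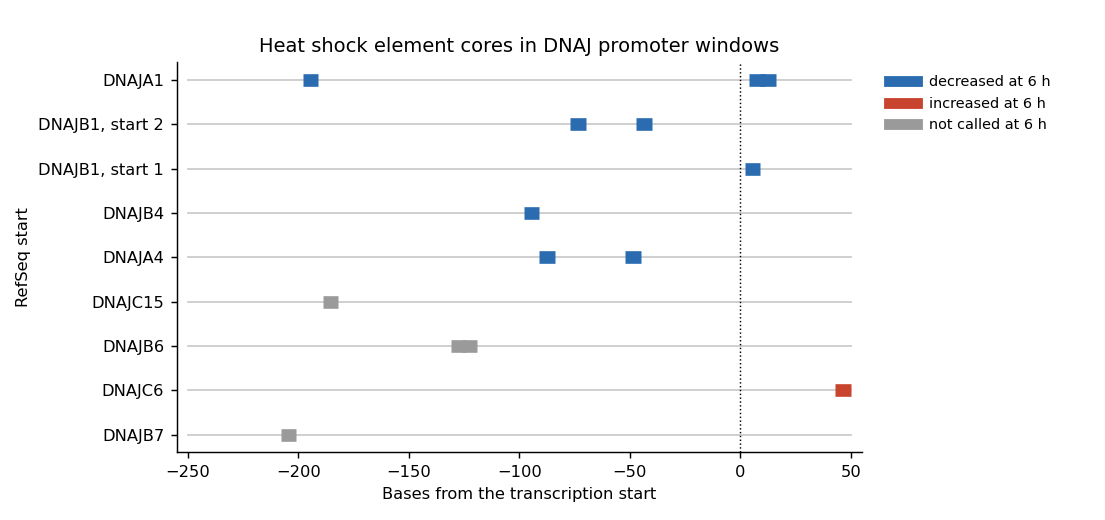
Positions of heat shock element cores (blocks) in RefSeq promoter windows of DNAJ genes, in bases from the annotated start (x axis, dotted line at the start); 1 line is 1 start that holds a core, coloured by the call of the gene at 6 h. The 4 genes that decreased (*DNAJA1*, *DNAJA4*, *DNAJB1* and *DNAJB4*) each have a core within 100 bases of a start, and so does *DNAJC6*, which increased; *DNAJC8*, *DNAJC11* and *DNAJC13* also decreased and hold no core in their windows.

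**Figure D4:**
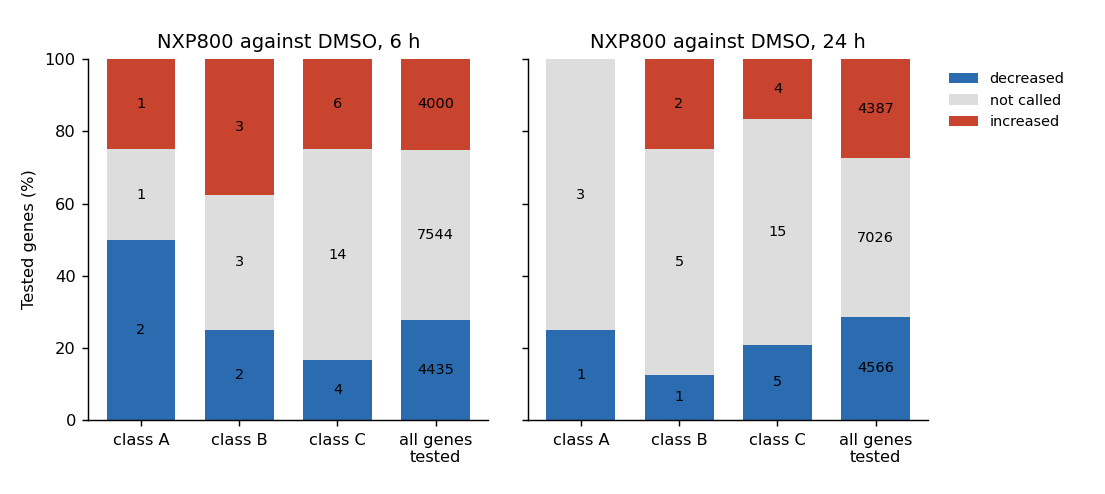
Share of tested genes (y axis, percent) that decreased, were not called or increased with NXP800, for the classes and for all genes tested, at 6 h (left) and 24 h (right), with the number of genes written in each block. At 6 h, 1 increased and 2 decreased of 4 in class A, 3 and 2 of 8 in class B, and 6 and 4 of 24 in class C. Over all genes tested 25.0% increased and 27.8% decreased. Without some single libraries class A had only 1 call at 6 h.

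The classes were set side by side without a test, since classes A and B hold few genes. At 6 h, 1 of the 4 class A members increased and 2 decreased, 3 of the 8 tested class B members increased and 2 decreased, and 6 of the 24 class C members increased and 4 decreased. Over all genes tested 25.0% increased and 27.8% decreased at that time. The class medians were -0.24, 0.21 and 0.10 on the log2 scale. At 24 h the counts were 0 increased and 1 decreased in class A, 2 and 1 in class B, and 4 and 5 in class C, with medians of -0.02, 0.04 and 0.01. Over all genes tested 27.5% increased and 28.6% decreased at 24 h. Single libraries moved some of the class counts. The 3 calls of class A at 6 h became 1 without DMSO 6 h replicate 1 or 3 or NXP800 6 h replicate 2, the 10 of class C at 6 h became 6 without NXP800 6 h replicate 2 (2 increased, 4 decreased), and the 3 of class B at 24 h became 5 without NXP800 24 h replicate 3. The 1 call of class A at 24 h became 2 without DMSO 24 h replicate 3 or with the replicate block. Without DMSO 6 h replicate 3, class C had 3 increased and 6 decreased at 6 h, and with library size alone as the scaling it had 6 increased and 3 decreased at 24 h.

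Levels of different genes were compared as CPM per kilobase of transcript. *DNAJA1* had the highest mean level of all members in every group, at 182 ± 12.4 (SD, n = 3) CPM per kilobase with DMSO and 84.5 ± 2.22 with NXP800 at 6 h, and 137 ± 17.7 and 94.0 ± 8.98 at 24 h. Next in the DMSO libraries at 6 h came *DNAJB6* (72.0 ± 3.42), *DNAJC8* (71.8 ± 3.60) and *DNAJA3* (69.7 ± 1.61), which did not differ beyond their spread. With NXP800 at 6 h *DNAJA3* (79.9 ± 5.39) came next to *DNAJA1*, and their difference was smaller than the SD of *DNAJA3*. Summed over the 4 members of class A, the level was 316 ± 15.4 CPM per kilobase with DMSO and 225 ± 7.55 with NXP800 at 6 h, and 258 ± 16.6 and 213 ± 9.58 at 24 h. Of the members, *DNAJA1* alone was lower by as much as the class at 6 h, while *DNAJA2* stood at 61.1 ± 3.42 and 58.0 ± 0.34, *DNAJA3* at 69.7 ± 1.61 and 79.9 ± 5.39 and *DNAJA4* at 3.16 ± 0.58 and 2.40 ± 0.28. Class A held 36.6 ± 0.42% of the summed level of all members with DMSO at 6 h and 30.5 ± 0.34% with NXP800, and 31.8 ± 0.55% and 30.4 ± 0.31% at 24 h. Class B held 18.4 ± 0.38% and 19.5 ± 0.31% at 6 h and 22.7 ± 0.92% and 22.5 ± 0.89% at 24 h. Class C held 45.0 ± 0.14% and 50.0 ± 0.65% at 6 h and 45.5 ± 1.47% and 47.1 ± 0.98% at 24 h. The mean summed levels of classes B and C were nevertheless lower with NXP800 at both times. Genes of high level weigh most in these sums. At 6 h *DNAJB1* went from 45.0 to 24.0 CPM per kilobase, *DNAJC8* from 71.8 to 57.6 and *DNAJC11* from 51.7 to 42.0. By log2 fold change, 5 tested members of class B were higher and 3 lower at 6 h, and 15 and 9 of class C. At 24 h 4 were higher and 4 lower in class B, and 12 and 12 in class C. Class B summed to 159 ± 3.33 with DMSO and 144 ± 5.38 with NXP800 at 6 h, and to 184 ± 16.1 and 158 ± 10.8 at 24 h. Class C summed to 389 ± 14.1 and 369 ± 4.80 at 6 h, and to 367 ± 6.68 and 330 ± 7.37 at 24 h. The sum over all members was 863 ± 32.5 with DMSO and 737 ± 17.0 CPM per kilobase with NXP800 at 6 h, and 809 ± 38.1 and 702 ± 25.3 at 24 h.

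The difference between the responses, 24 h minus 6 h with each time against its own DMSO libraries, was called for 2 of the 36 members (5.56%), beside 25.8% of all genes tested. Both are of class A. For *DNAJA1* it was 0.56 on the log2 scale (SE 0.13, edgeR adjusted p = 0.00408), so the fall was smaller at 24 h. The mean level of *DNAJA1* was 422 CPM at 6 h and 318 CPM at 24 h with DMSO, and 196 and 218 CPM with NXP800. For *DNAJA4* the difference was 0.67 (SE 0.21, adjusted p = 0.0290). That call was lost without DMSO 6 h replicate 1 or 3, NXP800 6 h replicate 2, DMSO 24 h replicate 1 or 2 or NXP800 24 h replicate 3, at adjusted p of 0.0568 to 0.0789. The count was 1 without any of these libraries and 4 without NXP800 24 h replicate 1 or 2. With the replicate block it was 11 (30.6%), beside 39.3% of all genes. The members added by the block were *DNAJB1* (0.26, edgeR adjusted p = 0.0108), *DNAJB2* (0.34, 0.0257) and *DNAJB4* (0.45, 0.00562), with *DNAJA3*, *DNAJB12*, *DNAJC6*, *DNAJC7*, *DNAJC22* and *DNAJC27* at adjusted p of up to 0.0403. The members not called in the unblocked test had differences from -0.68 (*DNAJC27*) to 1.01 (*DNAJC12*, SE 0.53).

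The genes of the HSP70 proteins on which J proteins act were set beside them. Of 12 listed HSP70 genes, 10 were tested, of which 3 increased and 7 decreased at 6 h, and 3 increased and 6 decreased at 24 h. The shares called were 100% and 90.0%, beside 52.8% and 56.0% of all genes tested. *HSPA8*, the constitutive cytosolic HSP70, stood at 4779 to 5065 CPM with DMSO and at 848 to 936 CPM with NXP800 at 6 h, a log2 fold change of -2.44 (SE 0.12, edgeR adjusted p = 3.68e-10). At the later time it stood at 4819 to 5752 and 1709 to 2572 CPM, a change of -1.22 (SE 0.12, adjusted p = 3.09e-07). It has 20 named pseudogenes. The stress-inducible pair *HSPA1A* and *HSPA1B* had log2 fold changes of -2.89 and -2.50 at 6 h and of -1.97 and -1.49 at 24 h, all called, but the copies are nearly identical and reads cannot be assigned to either with certainty. *HSPA2* changed by -1.74 and -1.63, both called, and *HSPA12A* fell by 1.22 at 6 h. *HSPA5*, the HSP70 of the ER lumen, rose by 0.66 and 1.06, and *HSPA9*, the mitochondrial HSP70 that *DNAJA3* serves, rose by 0.70 and 0.51.

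Of 14 nucleotide exchange factors, which release ADP from HSP70, 1 increased and 4 decreased at 6 h and 4 increased and 4 decreased at 24 h. The shares called were 35.7% and 57.1%, beside 52.8% and 56.0% of all genes tested. *BAG3*, the heat-inducible factor of selective autophagy, changed by -1.15 (SE 0.08, edgeR adjusted p = 6.19e-09) and -0.73, both called. *GRPEL2*, a mitochondrial exchange factor, rose by 1.19 and 0.59 (SE 0.06 for both). Of the 4 ER lumen J proteins left out of the count, *DNAJB9* rose by 1.07 and 1.55, *DNAJC3* fell by 0.26 at 6 h and *DNAJC10* rose by 0.55 at 24 h, whereas *DNAJB11* was not called. Among J proteins under other symbols, *HSCB*, the co-chaperone of mitochondrial iron-sulfur cluster assembly, rose by 0.55 at 6 h and 0.74 at 24 h. *SEC63*, which serves the ER translocon, rose by 0.30 at 24 h, while *GAK* was not called. *DNAJC5B* and *DNAJC5G* did not pass the filter. The shares called were 50.0% at both times among the ER lumen genes and among the tested genes under other symbols. Over all genes tested they were 52.8% and 56.0%.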

How the data were processed

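RNA-seq was done on 12 libraries of the MNNG/HOS line, 3 in each of 4 groups set by the labels. The deposited files hold raw counts for each gene symbol, as made by the authors. The authors prepared strand-specific mRNA libraries, sequenced them as read pairs and aligned them to hg38 with the RefSeq annotation, and their processing notes name fastp 0.20.1, STAR 2.7.5a and HTSeq 0.12.4. The strand setting of the counting is not given in the sources used here, and exon overlaps were taken on either strand. Entries that name no gene (8.02 to 12.2% of read pairs per library) entered neither the library sizes nor the tests.

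The tests used edgeR 4.0.16 and limma 3.58.1 under R 4.3.3. filterByExpr kept 15979 of 43236 symbols, scaling was by TMM, and the quasi-likelihood test was run in 1 model of the 4 groups with Benjamini-Hochberg adjustment over all genes tested. The scripts were tested on simulated data. Depth ran from 30810614 to 31947656 counts on genes, so counting error limits low genes only. The labels do not say that replicates were separate cultures, so p-values measure only the spread between these libraries, which may be technical. No pair of replicates was as close as a duplicate (chi-square of at least 7.95 per degree of freedom). Deviations of libraries with the same replicate number within a time point correlated at 0.16 to 0.33, and those with different numbers at -0.27 to 0.06, so the numbers were taken to pair the libraries. The deviations of the 3 libraries of a group sum to 0, which in part sets the negative values. Calls, SEs and p-values are from the test without this pairing unless the block is named. Alternatives were DESeq2 1.42.0, other scalings, filters, thresholds and fits, the replicate block and leaving out each library.

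The members and gene lists were chosen with earlier results of these data known, and the lists were written from general knowledge. Named were all class A members, members beyond 2-fold, the 5 highest and 5 lowest called changes per time, those called for the difference, untested members, members with a listed role, and HSP70 partners and exchange factors beyond 2-fold; *HSPA9*, the ER lumen genes and those under other symbols were added after their values were seen. Levels per kilobase used the Ensembl canonical transcript of GENCODE, gene positions and promoter windows RefSeq on GRCh38.p14. Protein sequences were not used here, and 1 gene of the lists is not reported here.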

Additional observations from a re-analysis of the deposited data

Results flagged for a closer look

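The response to NXP800 differed between the time points for 2 J protein genes, by the test of the difference itself (edgeR's quasi-likelihood test). For *DNAJA1*, the log2 fold change at 24 h minus that at 6 h was 0.56 (adjusted p = 0.00408). For *DNAJA4* it was 0.67 (adjusted p = 0.0290), a call lost when any 1 of 6 libraries was left out (DMSO 6 h replicate 1 or 3, NXP800 6 h replicate 2, DMSO 24 h replicate 1 or 2, NXP800 24 h replicate 3; adjusted p of 0.0568 to 0.0789). With the replicate block 11 members passed this test. Each response was measured against DMSO libraries of its own time. The responses still come from different sets of libraries, so time and set cannot be told apart in the levels or in the difference.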

How the results depend on the processing

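Results for single genes were followed if called in the edgeR test without the block, or if of class A at 6 h or 24 h. Uncalled results of classes B and C did not enter. Of the 37 results followed, 33 thus passed the threshold. Of these, 20 passed it in the same direction under each of the 21 alternatives that applied to it. The other 13 missed it under at least 1 alternative, and none of the 33 changed sign. At an adjusted p below 0.01, the calls at 6 h numbered 10 in place of 18 over all members, 1 in place of 3 in class A and 5 in place of 10 in class C, and the calls for the difference 1 in place of 2. The replicate block gave 11 calls for the difference and 2 for class A at 24 h, and changed no count of calls by over 1.5 times elsewhere. With at least 10 counts in every library the class B median at 6 h was 0.14. With library size alone as the scaling, the medians at 24 h were 0.070 in class A and 0.10 in class C, where that scaling moved the median of all genes by 0.09. Leaving out 1 library at a time gave 11 to 19 calls at 6 h and 11 to 14 at 24 h over all members. By class the range was 1 to 3 (A), 4 to 6 (B) and 6 to 11 (C) at 6 h, and 1 to 2, 2 to 5 and 8 to 9 at 24 h. The calls for the difference ranged from 1 to 4. Class medians then ranged from -0.29 to -0.19 (A), 0.15 to 0.25 (B) and 0.09 to 0.13 (C) at 6 h, and from -0.033 to 0.013, -0.10 to 0.066 and -0.03 to 0.05 at 24 h. Of results that passed no test, *DNAJA2* at 24 h changed sign with library size alone (0.055) and without NXP800 24 h replicate 2 (0.031). *DNAJA3* at 24 h changed sign with DESeq2 size factors (0.0033), library size alone (0.086), no filter (0.013), at least 10 counts (1.9e-05), the DESeq2 test (0.0028), the libraries of the time point alone (0.014), and without DMSO 24 h replicate 2 (0.045) or NXP800 24 h replicate 1 (0.029), with a range of -0.041 to 0.045 over the left-out libraries. The cause was not tested for any of these. Low counts limit *DNAJC12*, *DNAJB7* and the mitochondrial *DNAJC28*, which had 12 to 29 counts per library and was not called. Pseudogenes or overlapping genes limit *DNAJA1*, *DNAJB6*, *DNAJC8*, *DNAJC9*, *DNAJC14* and *DNAJC19*.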
